A study of Homo sapiens with 4 samples.

Results

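Autophagy encloses cell material in a double membrane and carries it to the lysosome, and 40 genes of its machinery and cargo receptors were followed through treatment of myeloma cells with MLN4924. They were listed by symbol and role, and drawn up with earlier results of these data known, from the 19775 genes that had a probe set annotated to 1 gene. MLN4924 inhibits the NEDD8-activating enzyme, and cullin-RING ubiquitin ligases need NEDD8 on their cullin to be active. The cells were MM.1S, an established human multiple myeloma line, kept without the drug in DMSO or given 250 nM MLN4924 for 8, 16 or 24 h. Each of these 4 groups was 1 Affymetrix array, and the control label named no culture time. With 1 array per group there was no test, and every difference is that of 1 array from another.

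In the pathway, a kinase complex around ULK1 starts the process and a lipid kinase complex around BECN1 marks the membrane. Transfer proteins then supply lipid, and enzymes that resemble those of ubiquitin conjugation attach small ubiquitin-like proteins of the ATG8 family to the membrane. Receptors such as SQSTM1 and NBR1 bind both the cargo and an ATG8 protein, and further proteins fuse the finished vesicle with the lysosome. Plasma cells are known for a high load of secreted protein, and in mouse the gene Atg5 is needed for their long-term survival in the bone marrow.

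The deposited values were intensities on a linear scale, with array medians between 92.2 and 95.4. A gene was read from its probe set with the highest mean, and counted as measured when that mean exceeded 93.9, the median across the whole array (geometric mean intensity). Of the 40 genes, 38 were measured, as were 12446 genes in all. All 11 plasma cell markers were measured, among them JCHAIN (20178 to 22314), XBP1 (8787 to 10030) and TNFRSF17 (7445 to 9658), as the label's cell type would have them. Of the markers of T and NK, myeloid and stromal cells, 4 of 6, 1 of 6 and 1 of 6 were measured. The 4 of T and NK cells lay at 83.9 to 135 on the 4 arrays, close to 93.9. Of 6 erythroid markers 2 were measured, AHSP at 152 to 163 and HBB at 995 to 1219, on control and treated arrays alike. In these bulk samples fewer cells of a kind and less RNA per cell cannot be told apart.

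After 8 h the autophagy genes as a group lay near the control, and after 16 and 24 h most lay above it. The median log2 difference of the 38 measured genes was -0.035, 0.16 and 0.13 after 8, 16 and 24 h, against 0.0071, 0.026 and 0.016 over all measured genes. At 8 h 16 of the 38 were above 0, or 42.1%, against 51.7% of all measured genes. The count was 27 at 16 h, or 71.1% against 54.3%, and 26 at 24 h, or 68.4% against 52.6%. All 3 differences share the control array, so the 16 h and 24 h counts are not separate evidence. The 16 h array set against the 8 h array, which leaves the control out, gave a median of 0.19, against 0.015 over all measured genes. Above 0 were 26 of 38. The share of all measured genes above 0 was not counted for this pair, so that count has no background to be set against. Between 24 h and 8 h the median of the 38 was 0.07, against 0.0058 over all measured genes. The 8 h array was low for plasma cell markers as well. Above the control was 1 of 11, or 9.09% against 51.7% of all measured genes, with a median of -0.24 against 0.0071. Set against the 8 h array, 9 of the 11 were higher at 16 h, with a median of 0.16 against 0.015 over all measured genes. The part of this in the autophagy values was not tested.

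**Figure D1:**
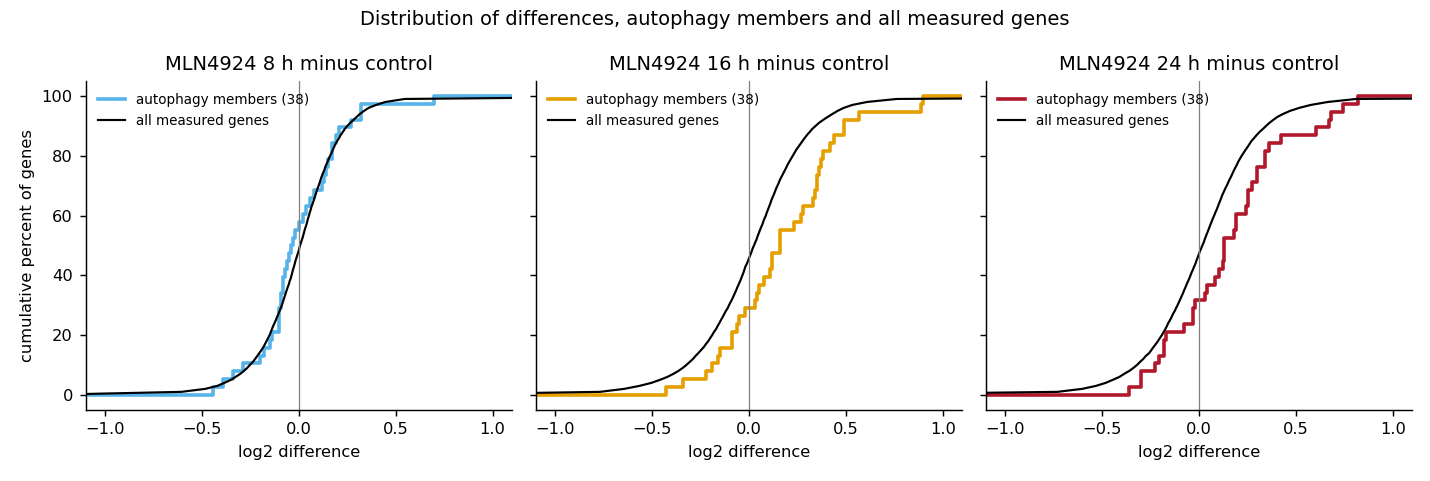
Cumulative percent of genes (vertical axis) against the log2 difference from the control array (horizontal axis), for the 38 measured autophagy genes (coloured steps) and all 12446 measured genes (black line) at 8, 16 and 24 h of MLN4924. The steps cross the black line at 8 h and lie to its right over most of the range at 16 and 24 h, where the medians are 0.16 and 0.13.

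Few of these genes differed by much. A difference of at least 1.5-fold, 0.585 on the log2 scale, was reached on the high side by 1 gene at 8 h, 2 at 16 h and 5 at 24 h. Of all measured genes 0.731%, 2.24% and 2.85% did so. On the low side none of the 38 reached it at any time, where 1.12%, 2.73% and 2.31% of all measured genes did. In the probe sets used none of the 38 was 2-fold different in either direction, against 0.249%, 0.675% and 0.707% of all measured genes at 8, 16 and 24 h. The 5 genes were GABARAPL1, NBR1, WIPI1, ATG4C and RB1CC1. Closest to the line were RB1CC1 just inside it at 24 h (0.60) and ULK1 just outside it at 16 h (0.57). Technical spread was read from genes with several measured probe sets, which differed with a pooled SD of 0.16, 0.189 and 0.18 (log2) at 8, 16 and 24 h. It holds no spread between cultures. The medians of the 38 at 16 and 24 h (0.16 and 0.13) lay under it, but it is for single genes, not for medians.

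**Figure D2:**
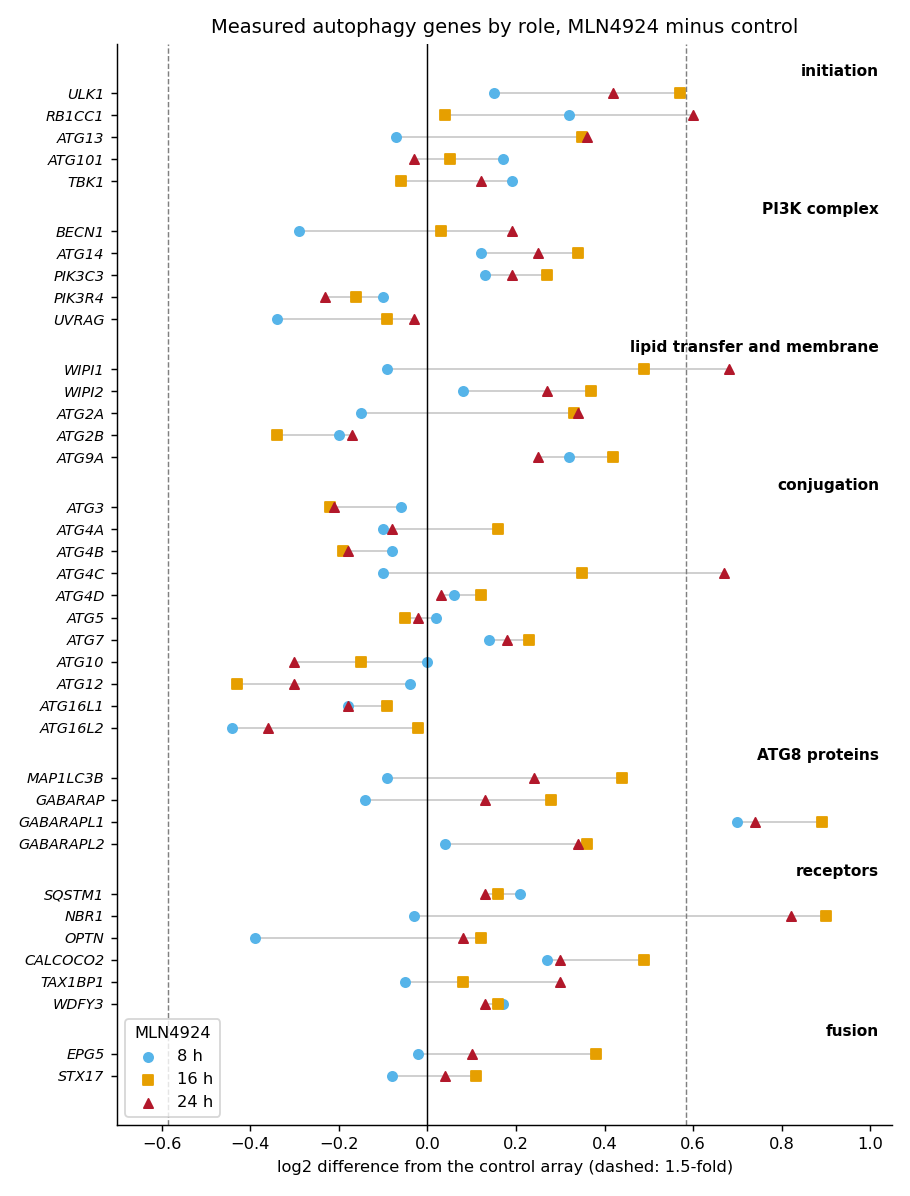
Log2 difference from the control array (horizontal axis) of each of the 38 measured autophagy genes, by role, at 8 h (circles), 16 h (squares) and 24 h (triangles) of MLN4924, 1 array each. Dashed lines mark 1.5-fold. Only GABARAPL1 lies beyond the right-hand line at 8 h, and most conjugation genes lie left of 0 at 24 h.

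The earliest difference past this line was that of GABARAPL1, an ATG8 family protein that is joined to the autophagosome membrane. Its intensities were 90.1 in the control and 146, 167 and 150 after 8, 16 and 24 h. The 3 treated arrays thus all lay above the control, by 1.62-fold, 1.86-fold and 1.67-fold. Its second measured probe set gave 0.92, 1.24 and 1.04 (log2) at 8, 16 and 24 h, against 0.70, 0.89 and 0.74 in the first. It thus passed 2-fold at 16 and 24 h, but from a control intensity of 72.5, further under the filter of 93.9 than the first. The size of these folds is therefore uncertain as well. GABARAPL1 was the 1 gene of the 38 with a control intensity under the filter of 93.9. It counted as measured only through the treated arrays, on which it was high, and the size of its fold is uncertain. Over the 37 genes above the filter in the control too, 0, 1 and 4 were at least 1.5-fold higher at 8, 16 and 24 h. A further probe set was annotated to it and to a near-identical copy, GABARAPL3, and was left out, and the probe sets used were not shown to tell the copies apart. The gene spans bases 10212877 to 10223128 of chromosome 12 (GRCh38.p14). The RefSeq promoter window of this gene, chr12:10212627-10212926 on the plus strand, runs from 250 bases before the annotated start to 50 after it. It is shown because GABARAPL1 was the 1 gene past 1.5-fold at all 3 times. Capitals mark the letters TGACGTCA, a cAMP response element that begins 30 bases before the start (position -30), and the start base itself.
GABARAPL1: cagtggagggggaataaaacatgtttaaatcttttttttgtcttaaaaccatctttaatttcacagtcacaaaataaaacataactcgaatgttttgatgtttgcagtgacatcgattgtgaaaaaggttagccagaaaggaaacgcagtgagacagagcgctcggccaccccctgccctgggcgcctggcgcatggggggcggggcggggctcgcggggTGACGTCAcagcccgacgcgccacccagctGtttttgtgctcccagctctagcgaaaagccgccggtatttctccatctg
Those 8 letters, which read the same on both strands, were looked for after the window had been read. They occurred in 1 of 41 promoter windows of the autophagy genes, this one, and in 1.85% of all 35116 windows.

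The other ATG8 family genes lay below or near the control at 8 h and above it later. MAP1LC3B, which encodes the LC3B protein used as the common autophagosome marker, had intensities of 701, 657, 949 and 827 on the control, 8 h, 16 h and 24 h arrays. Its 2 probe sets had differences of 0.44 and 0.32 (log2) at 16 h. GABARAP stood at 4106, 3740, 4998 and 4480 on the same arrays, and GABARAPL2 at 1341, 1380, 1724 and 1697. All 4 ATG8 genes of the list were thus above the control at 16 h, with a median of 0.40, and at 24 h, with a median of 0.29. Of all measured genes 54.3% and 52.6% were above it at 16 and 24 h. GABARAP and GABARAPL2 have 1 probe set each, so a second reading of them is lacking.

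NBR1, a receptor that carries ubiquitinated cargo to ATG8 proteins, had the largest difference of the receptors. Control and 8 h arrays gave 827 and 809, and the 16 h and 24 h arrays 1538 and 1461. The late arrays were 1.86-fold and 1.77-fold above the control, and the 8 h array was level with it (0.979-fold). Its other measured probe set had the same sign but was smaller, at 0.24 and 0.26 (log2) against 0.90 and 0.82. The gap between the probe sets exceeds the pooled SD between probe sets, so the size of the NBR1 difference depends on the probe set. Of the 38, NBR1 was also the 1 gene at least 1.5-fold higher at 16 h than at 8 h (0.93, log2), a step that 1.86% of all measured genes made upward and 1.61% downward.

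The remaining receptors differed less. SQSTM1, or p62, is the receptor that also binds KEAP1, the inhibitor of NRF2. It stood at 4883 in the control and at 5645, 5447 and 5354 after 8, 16 and 24 h, so its highest array was the first treated one. Its 3 other measured probe sets, all dimmer, gave 0.53, 0.36 and 0.02 (log2) at 8 h, against 0.21 in the brightest. CALCOCO2, or NDP52, a receptor for bacteria and mitochondria, had 800, 966, 1127 and 986, but of 2 other measured probe sets 1 was below 0 at 16 h. OPTN, or optineurin, a mitophagy receptor, had 830, 635, 905 and 879 and was thus low on the 8 h array alone. Its other probe set matched this, at -0.38, 0.12 and 0.16 (log2). TAX1BP1, a receptor related to CALCOCO2, was highest at 24 h (2240, against 1814 in the control). Its 2 other measured probe sets stood at 0.10 and -0.11 (log2) at 16 h. WDFY3, the scaffold ALFY for protein aggregates, lay between 0.13 and 0.17 at all times in the probe set used. The other measured probe set of WDFY3 gave 0.15, 0.17 and 0.52 at 8, 16 and 24 h. All 6 receptors were above the control at 16 and 24 h, with medians of 0.16 and 0.22, and 3 of 6 were at 8 h. Of all measured genes 54.3%, 52.6% and 51.7% were above it at 16, 24 and 8 h. SQSTM1, OPTN and WDFY3 at both late times, and TAX1BP1 at 16 h, differed by less than the pooled SD between probe sets.

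WIPI1, which binds the lipid made by the PIK3C3 kinase on the growing membrane, was level with the control at 8 h and higher later. It had 524 in the control and 492, 734 and 838 after 8, 16 and 24 h. Both of its probe sets gave nearly the same values, 0.49 and 0.50 (log2) at 16 h and 0.68 and 0.62 at 24 h. Its relative WIPI2 stood at 1165, 1230, 1509 and 1403, and all 3 of its measured probe sets were above 0 at 16 h. Of the lipid transfer proteins, ATG2A was at 274, 247, 345 and 347, and ATG2B at 336, 292, 265 and 298. The ATG2 genes thus stood on opposite sides of the control at 16 h (0.33 and -0.34), although both other measured probe sets of ATG2B were at or above 0 there. ATG9A, the lipid scramblase of the vesicles that seed the membrane, was at 267, 334, 358 and 317. VMP1, another scramblase, had only 1 probe set with 1 gene, at 24.5 to 34 on the 4 arrays, and did not count as measured. The 3 probe sets annotated to VMP1 together with another gene were left out.

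The window of WIPI1, chr17:68457447-68457746 on the minus strand, is shown for its row of identical GC boxes, with the 9 letters GGGGCGGGG in capitals beside the start base.
WIPI1: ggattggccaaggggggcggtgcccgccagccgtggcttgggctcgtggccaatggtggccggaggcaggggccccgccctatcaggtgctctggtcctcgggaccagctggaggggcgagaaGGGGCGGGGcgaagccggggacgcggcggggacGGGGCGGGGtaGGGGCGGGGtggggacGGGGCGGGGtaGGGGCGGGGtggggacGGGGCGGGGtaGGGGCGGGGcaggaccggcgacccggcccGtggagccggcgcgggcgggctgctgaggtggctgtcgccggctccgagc
That word occurred 7 times in this window, a number reached by 0.0541% of all windows. On either strand it was found in 16 of 41 windows of the autophagy genes, or 39%, and in 15.7% of all windows, and like the cAMP element it was looked for after the windows had been read. The autophagy windows were also richer in G and C, with a median of 64.7% against 58.7%. Of 2 windows of NBR1 the first is shown. NBR1 and ATG4C had the windows chr17:43170159-43170458 and chr1:62783882-62784181, both on the plus strand, with the start base in capitals.
NBR1: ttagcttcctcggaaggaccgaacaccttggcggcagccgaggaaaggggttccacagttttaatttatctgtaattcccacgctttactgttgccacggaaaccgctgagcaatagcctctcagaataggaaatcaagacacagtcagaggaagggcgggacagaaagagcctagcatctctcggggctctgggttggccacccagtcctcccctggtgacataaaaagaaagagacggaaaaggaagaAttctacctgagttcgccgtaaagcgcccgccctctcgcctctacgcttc
ATG4C: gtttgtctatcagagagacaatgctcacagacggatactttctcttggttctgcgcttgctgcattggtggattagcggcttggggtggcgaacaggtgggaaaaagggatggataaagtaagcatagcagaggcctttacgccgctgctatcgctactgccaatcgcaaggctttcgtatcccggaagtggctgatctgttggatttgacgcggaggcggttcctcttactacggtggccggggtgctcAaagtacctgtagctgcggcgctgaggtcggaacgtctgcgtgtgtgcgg

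Most conjugation genes lay below the control at each time. Of 11 measured genes, 8 were below the control at 8 h, 7 at 16 h and 8 at 24 h, with medians of -0.058, -0.047 and -0.18. Those above it were 27.3%, 36.4% and 27.3%, against 51.7%, 54.3% and 52.6% of all measured genes. The medians at 8 and 16 h were small beside the pooled SD between probe sets (0.16 and 0.189), and that at 24 h was level with it (0.18). That SD is for single genes and was not scaled to a median of 11, so it does not judge these medians. ATG12, the ubiquitin-like protein joined to ATG5, had 829, 808, 616 and 674 on the control, 8 h, 16 h and 24 h arrays. Its difference at 16 h, -0.43 (log2), was the lowest of the 38 genes at that time, and its other 2 measured probe sets were also below 0. ATG3, the conjugating enzyme for ATG8 proteins, stood at 3605, 3464, 3096 and 3122. The values of ATG10, the conjugating enzyme for ATG12, were 163, 163, 147 and 132, with 1 other probe set of opposite sign. ATG7, the activating enzyme of both branches, was highest at 16 h (273, against 233 in the control), but its other measured probe sets stood at -0.32 and 0.01 (log2) there. ATG5 lay between 1355 and 1418, and its other measured probe sets at -0.45 and -0.07 at 16 h. ATG16L2, a relative of the ATG16L1 subunit, was low at 8 h (250) and 24 h (264), against 339 in the control and 335 at 16 h. Its other probe set had the opposite sign at 8 h. ATG16L1 lay between -0.18 and -0.09.

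The highest of the conjugation genes at 16 and 24 h, and the 1 past 1.5-fold, was ATG4C, one of 4 proteases that trim ATG8 proteins before conjugation and release them afterwards. It had 607 in the control, then 568, 774 and 966 after 8, 16 and 24 h, and the 24 h value was 1.59-fold above the control. It has 1 probe set, so no second reading was possible. ATG4A, ATG4B and ATG4D stood at -0.08, -0.18 and 0.03 at 24 h, against 0.67 for ATG4C. Within this family the higher level at 24 h was therefore that of ATG4C.

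In the initiation complex the genes were high on different arrays. RB1CC1, or FIP200, the scaffold of the complex, had 1268, 1583, 1302 and 1922 on the control, 8 h, 16 h and 24 h arrays. It was thus higher at 8 h and 24 h and near the control at 16 h, and 1.52-fold above it at 24 h. Its other probe set was lower, at -0.02, -0.40 and 0.27 (log2), with the same dip at 16 h. The gene spans 91978 bases of chromosome 8 (52622458 to 52714435, GRCh38.p14). From 16 to 24 h RB1CC1 had the largest upward step of the 38 genes, 0.56, and none reached 1.5-fold, which 0.739% of all measured genes did upward and 0.0884% downward. ULK1, the kinase itself, stood at 96.2, 107, 143 and 128, highest at 16 h (1.48-fold), with a single probe set and a control value close to the filter. ULK2, its relative, had 97 at 8 h, against 82.4 in the control, and did not count as measured. ATG13, the adaptor, was at 263, 251, 337 and 339, and ATG101, its partner, at 606, 684, 629 and 594. For ATG13 1 of 2 other measured probe sets was near 0 at 16 and 24 h. TBK1, a kinase that phosphorylates receptors such as OPTN, stood at 892, 1016, 856 and 971.

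The lipid kinase complex differed little. ATG14, the subunit that directs it to autophagy, had 155, 168, 196 and 185 on the control, 8 h, 16 h and 24 h arrays, and its difference of 0.34 (log2) at 16 h was the highest of the group. UVRAG, which takes the place of ATG14 in the endosomal form of the complex, was at 390, 308, 367 and 382, lowest at 8 h with a difference of similar size (-0.34). BECN1 was also lowest at 8 h (1041, against 1273 in the control) and highest at 24 h (1450). Its other measured probe set differed less at 8 h (-0.06 against -0.29, log2) and was highest at 16 h (815, against 779 at 24 h). PIK3C3, the catalytic subunit, stood at 551, 602, 663 and 628, but all 3 other measured probe sets were below 0 at 16 h. PIK3R4, its regulatory subunit, went the other way with 677, 632, 608 and 577. For fusion with the lysosome, EPG5, a tether, was at 355, 351, 462 and 380, and STX17, the autophagosome SNARE, at 563, 533, 608 and 580. For STX17 2 of 3 other measured probe sets were below 0 at 16 h.

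**Figure D3:**
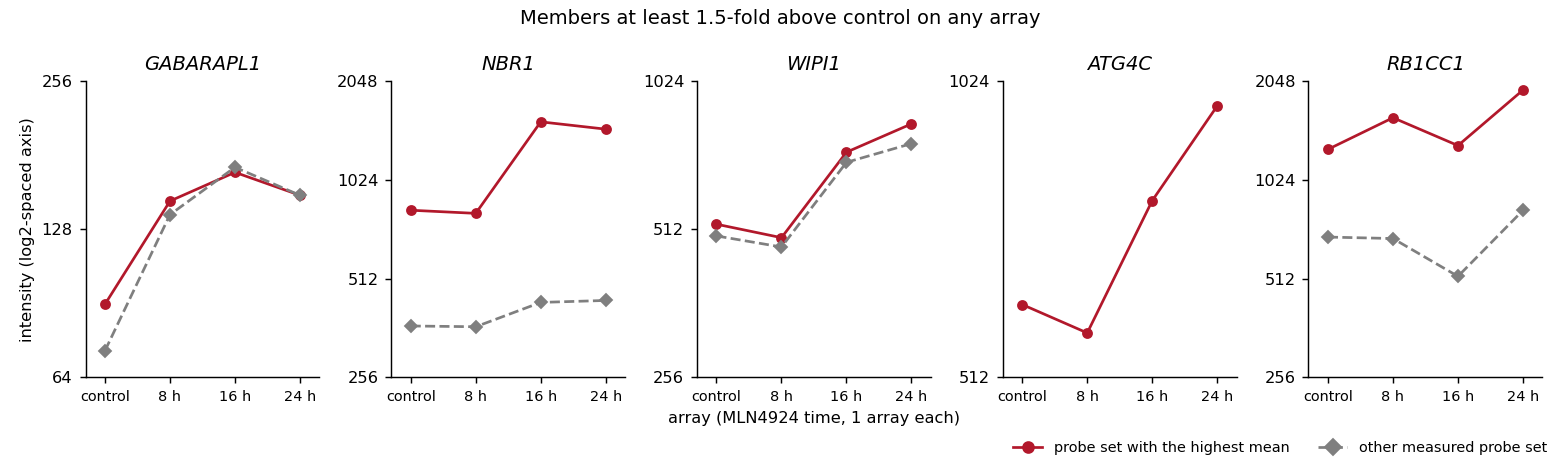
Intensity on a log2-spaced axis (vertical) on the control, 8 h, 16 h and 24 h arrays (horizontal) for the 5 autophagy genes at least 1.5-fold above the control on any array. Solid lines are the probe set used, and dashed lines any other measured probe set of the gene. GABARAPL1 is already high at 8 h, NBR1, WIPI1 and ATG4C are high at 16 and 24 h only, and RB1CC1 dips at 16 h.

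The arrays on which these genes were highest and lowest were unevenly spread. Of the 38, 17 were highest at 16 h, 9 in the control, 7 at 24 h and 5 at 8 h, where 25.6%, 25.3%, 25% and 24.1% of all measured genes were. The lowest array was that of 8 h for 16 genes, the control for 13, 16 h for 6 and 24 h for 3, against 25.7%, 29.7%, 18.5% and 26.2% of all measured genes. A pattern of below the control at 8 h and above it at both later times was seen in 12 genes, or 31.6%, against 13.6% of all measured genes. NBR1, WIPI1, ATG4C, MAP1LC3B and GABARAP were among them, with values at 8 h (-0.03 to -0.14) that lay within the pooled SD between probe sets. In 13 genes (34.2%, against 29.7%) all 3 treated arrays were above the control, and in 9 (23.7%, against 25.3%) all were below. Counted over probe sets, 52 of the 79 measured ones were above 0 at 16 h (65.8%, against 52.2% of all measured probe sets with 1 gene) and 55 at 24 h (69.6% against 51.8%).

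Known motifs of factors that act on autophagy and antioxidant genes were searched on both strands of the promoter windows, which were listed for 34 of the 40 genes. The E-box CACGTG, the core of the element bound by TFEB, was in 3 of 41 windows (7.32%, against 7.26% of all windows). The core of the antioxidant response element, TGACNNNGC, was in 3 (7.32% against 13.3%), and the forkhead element TGTTTAC in 1 (2.44% against 3.42%). Of the 5 genes past 1.5-fold, GABARAPL1, NBR1, WIPI1 and ATG4C had no match, and for RB1CC1 no window was listed. The E-box windows are printed over 60 bases each, since the genes that hold it stood on different sides of the control, and capitals mark the motif. They lie at chr3:112561937-112561996 (minus strand), chr14:55411819-55411878 (minus) and chr12:64452062-64452121 (plus).
ATG3: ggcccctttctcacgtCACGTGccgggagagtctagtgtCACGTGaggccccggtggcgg
ATG14: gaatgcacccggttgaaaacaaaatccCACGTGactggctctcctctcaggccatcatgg
TBK1: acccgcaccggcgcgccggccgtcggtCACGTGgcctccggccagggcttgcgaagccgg
At 16 h ATG3 stood at -0.22 (log2), ATG14 at 0.34 and TBK1 at -0.06. The antioxidant core lay in windows of ATG101, MAP1LC3B and CALCOCO2, and CALCOCO2 also held the forkhead element. The window of MAP1LC3B at chr16:87392264-87392323 (plus strand) is the example shown, with the core in capitals.
MAP1LC3B: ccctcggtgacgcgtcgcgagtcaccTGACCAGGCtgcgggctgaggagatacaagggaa

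A wider set of 55 autophagy genes was laid out in 4 lists, of which 50 genes were measured. Their medians were -0.033, 0.14 and 0.13 at 8, 16 and 24 h, with 21, 36 and 34 genes above the control, or 42%, 72% and 68%, against 51.7%, 54.3% and 52.6% of all measured genes. At least 1.5-fold higher were 2 at 8 h, 6 at 16 h and 6 at 24 h, where 0.731%, 2.24% and 2.85% of all measured genes were. At 8 h 1 was as far below, as were 1.12% of all. The largest difference was that of TP53INP1, a protein that binds ATG8 proteins and is a target of p53. It had 2187, 2969, 4850 and 4875 on the control, 8 h, 16 h and 24 h arrays, 2.23-fold higher at 24 h, although 1 dimmer measured probe set stood at -0.33 and -0.14 (log2) at 16 and 24 h. BCL2, which binds and holds back BECN1, was at 964, 908, 1483 and 1515. With the median level of all its probe sets on each array, measured or not, it stood at -0.05 (log2) at both late times.

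Among receptors on organelles, BNIP3L, or NIX, a mitophagy receptor, had 454, 370, 735 and 848 on the control, 8 h, 16 h and 24 h arrays, below the control first and then 1.87-fold above it. Its other probe set gave -0.32, 0.51 and 0.72 (log2). CCPG1, a receptor for the endoplasmic reticulum, was above the control on every treated array, at 900, 812 and 1082 against 596. The fusion genes lay near the control, with medians of -0.083, 0.077 and 0.043. Highest among them were VPS41, a subunit of the HOPS tether (463, 566, 716 and 689), and PLEKHM1, an adaptor that binds HOPS and ATG8 proteins (623, 649, 884 and 917).

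Of the regulators, SESN3, a sestrin that restrains mTORC1, was at 308, 477, 560 and 514 on the control, 8 h, 16 h and 24 h arrays. Of its 7 probe sets only 1 was measured, with differences of 0.63, 0.86 and 0.74 (log2). The median level of all its probe sets, measured or not, gave 0.00, 0.11 and 0.15 at 8, 16 and 24 h. DEPTOR, an inhibitor of mTOR, stood at 4532, 2561, 3966 and 3842 on the same arrays. It was lowest at 8 h (0.565-fold) and still below the control at 16 and 24 h (-0.19 and -0.24, log2). TFE3, a factor related to TFEB, is named after its value was seen, as the 1 other regulator past 1.5-fold. It had 798, 1106, 1253 and 1233, and its other measured probe set gave -0.07 and 0.03 (log2) at 16 and 24 h. TFEB itself stood at 0.09, 0.16 and 0.11, and the mTOR kinase gene at -0.28, -0.28 and -0.34. The regulators had medians of -0.036, 0.049 and -0.071, without a common direction.

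**Figure D4:**
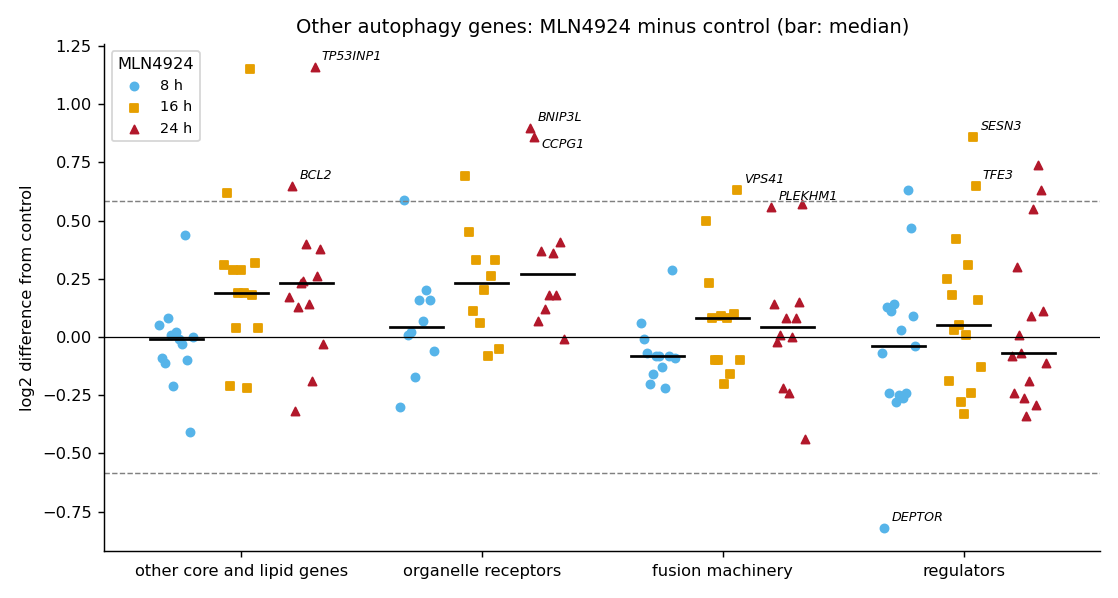
Log2 difference from the control array (vertical axis) of the 50 measured genes of the wider set, in 4 lists (horizontal axis), at 8 h (circles), 16 h (squares) and 24 h (triangles) of MLN4924, with black bars at the medians and dashed lines at 1.5-fold. TP53INP1 stands highest, and DEPTOR at 8 h is the 1 gene under the lower line.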

How the data were processed

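Total RNA of MM.1S cells was extracted with Trizol and labelled as biotinylated cRNA for Affymetrix arrays, per the labels' protocols. The deposited values are intensities per probe set on a linear scale. How they were summarised and normalized is not given in the sources used here. Array medians differed by at most 0.0483 (log2), and no normalization was added. Of 54675 probe sets, 41097 were annotated to 1 gene and 1801 to several. The 40 genes had 107 probe sets, of which 79 were measured. Intensities deposited by the authors had a floor set at their 25th percentile (48.4) and were put on the log2 scale. No measured gene was at the floor on any array. Each gene was read from the probe set of 1 gene with the highest mean. Genes named with values on every array were those past 1.5-fold at any time, the largest of each other role group, and 2 of each wider list, and the text adds further genes so that each of the 40 is covered. Genes, lists and the 1.5-fold line were chosen with earlier results of these data known. Promoter windows and gene spans are RefSeq's (GRCh38.p14). Python 3.11.15, numpy 2.4.6 and pandas 2.3.3 were used. Alternatives were other probe set choices, floors, filters and normalizations.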

Additional observations from a re-analysis of the deposited data

Results flagged for a closer look

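Several genes stood on opposite sides of the control at different times, with at least 1 time past 1.5-fold, a difference between times that was not tested since each time is 1 array. NBR1 stood at 0.90 (log2) at 16 h and 0.82 at 24 h, against -0.03 at 8 h. WIPI1 stood at 0.68 at 24 h, against -0.09 at 8 h. ATG4C stood at 0.67 at 24 h, against -0.10 at 8 h. The negative values are within the pooled SD between probe sets of the same gene at 8 h (0.16), so they cannot be told from no difference at 8 h.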

How the results depend on the processing

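No paired analysis was possible because each group is 1 array. For single genes a value was said to move when it shifted by more than the pooled SD between probe sets, and for list medians by more than that SD over the square root of the number of genes. In 1 alternative each gene was given, on each array, the median level of all its probe sets, also those under the filter. The list then held 35 genes. Its medians were 0.12 at 16 h and 0.16 at 24 h, and 1 and 3 genes were at least 1.5-fold higher. GABARAPL1 then stood at 1.07 at 16 h, past 2-fold, but both of its probe sets were under the filter in the control (90.1 and 72.5). NBR1 stood at 0.39 and 0.48 at 16 and 24 h, and RB1CC1 at 0.15 at 8 h and -0.18 at 16 h. Leaving out _x_at and _s_at probe sets, which leaves 26 of the 38 genes, 0, 0 and 2 genes were at least 1.5-fold higher at 8, 16 and 24 h, and 10, 16 and 17 were above the control. With the filter at the 75th percentile 0 genes at 8 h and 1 at 16 h were at least 1.5-fold higher, and the 16 h median was 0.12. Centring each array on its median gave list medians of -0.079, 0.13 and 0.083. Set against the 8 h array, an alternative chosen after seeing the data, the medians were 0.19 and 0.07 at 16 and 24 h, and 1 and 3 genes were at least 1.5-fold higher. GABARAPL1 stood at 0.20 and 0.04 then, since it was already high at 8 h, and RB1CC1 at -0.28 and 0.28. GABARAPL1, NBR1 and RB1CC1 had no measured probe set left without _x_at and _s_at ones, nor GABARAPL1 at the 75th percentile, which lowered those counts. The share of all measured genes was not counted under these alternatives, except at 16 h against 8 h (1.86% at least 1.5-fold higher). The other gene counts thus have no background to be set against. Where a gene stayed measured, no value past 1.5-fold changed sign, and no gene of the list was at least 1.5-fold lower under any alternative. The number of arrays, 4, limits the precision, and no measure of background was at hand for the 2 genes under the filter.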
